A study of Mus musculus with 33 samples.

Results

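Of the 13644 windows of 10 kb at which Uhrf1 was enriched in wild type (WT) mouse embryonic stem cells (mESC), 790 (5.79%) lay on H3K27me3 alone. They were chosen by the deposited lists themselves: a window was kept if at least 1 bp of it was in a WT mESC H3K27me3 domain and none of it was in a WT mESC H3K9me3 or H3K4me3 domain. What these 4 lists show at the windows follows from that choice, and any value taken from them here is a description. The lists came from ChIP-seq, the sequencing of chromatin fragments pulled down by an antibody, in E14 mESC, in an Uhrf1 KO mESC line, and in embryoid bodies (EBs, aggregates grown in hanging drops) of both genotypes at weeks 1, 2 and 3 of differentiation. WT and Uhrf1 KO mESC were profiled for H3K4me3, H3K27me3, H3K9me3, Oct4, Sox2 and Nanog, WT mESC for Uhrf1, and EBs for H3K4me3 and H3K27me3. The 33 samples comprised 25 libraries with a list of regions and 8 inputs not analysed here. Each group held 1 library and the KO was 1 line, so the replicate error of every value is unknown. Ranges in brackets after a share are Wilson 95% intervals and those after a difference Newcombe 95% intervals, both for the counting of windows alone, and neighbouring windows are not independent. Where windows and tiles were compared in groups of like content, a normal 95% interval was used. The depth of the libraries was not analysed here.

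Uhrf1 reads hemimethylated CpG sites left behind by DNA replication and brings the maintenance methyltransferase Dnmt1 to them, and it also binds the tail of histone H3. H3K27me3 is laid down by Polycomb repressive complex 2 and marks silent genes and broad silent regions, whereas H3K9me3 marks constitutive heterochromatin and many transposable elements. H3K4me3 marks active or poised promoters, and Oct4, Sox2 and Nanog are the transcription factors at the core of the stem cell state.

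As the nearest comparison, 30969 tiles of 10 kb from the same grid met the same histone rule but were in no Uhrf1 window. Within the H3K27me3-alone regions the Uhrf1 windows were single and scattered. The 790 windows formed 748 runs of adjoining windows, of which 711 were a lone window, 33 were pairs, 3 held 3 windows and the longest held 4. They lay in 649 WT mESC H3K27me3 domains, 540 of which held 1 window, and no domain held more than 6. The domains were long, with a median length over windows of 158 kb, against 160 kb over the tiles without Uhrf1. The median of the domains' mean read count per bin was 4.30 over windows (quartiles 3.9 and 5.04) and 4.46 over tiles (quartiles 3.96 and 5.34). Most windows were far inside the rule: 704 of 790 were wholly covered by H3K27me3 and 4 were covered over less than 10% of their length, the smallest overlap being 400 bp. Just outside it, 38 Uhrf1 windows with no mark lay within 1 kb of an H3K27me3 domain. Just inside it, 16 of the 790 windows lay within 1 kb of an H3K9me3 domain, and the median distance was 33.6 kb to H3K9me3 and 143 kb to H3K4me3.

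These windows differed from the tiles without Uhrf1 in repeated sequence. The genome was read in words of 24 bases taken every 100 bases, and a word with 10 or more copies in the genome on either strand was called repeated. In the median Uhrf1 window on H3K27me3 alone 53% of the words were repeated (quartiles 18% and 65%), against 6% in the median tile without Uhrf1 (quartiles 3% and 10%). Words that occurred once made up 41% and 91%. Over 25% of words were repeated in 568 of the 790 windows (71.9%) and in 2023 of the 30969 tiles (6.53%). Read the other way, as a description since the Uhrf1 list chose the windows, of all H3K27me3-alone tiles with under 6% repeated words 0.643% were Uhrf1 windows, of those with 6 to 25% 0.896%, of those over 25% 21.9%, and of those over 50% 45.8% (419 of 914). Repeated words were as common in the other Uhrf1 classes, with medians of 48% on H3K9me3 and H3K27me3, 56% on H3K9me3 alone and 60% with no mark. The authors kept 1 alignment per read, so a read from a repeated sequence may be placed at any of its copies, and what this did to the Uhrf1 list was not tested.

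**Figure D1:**
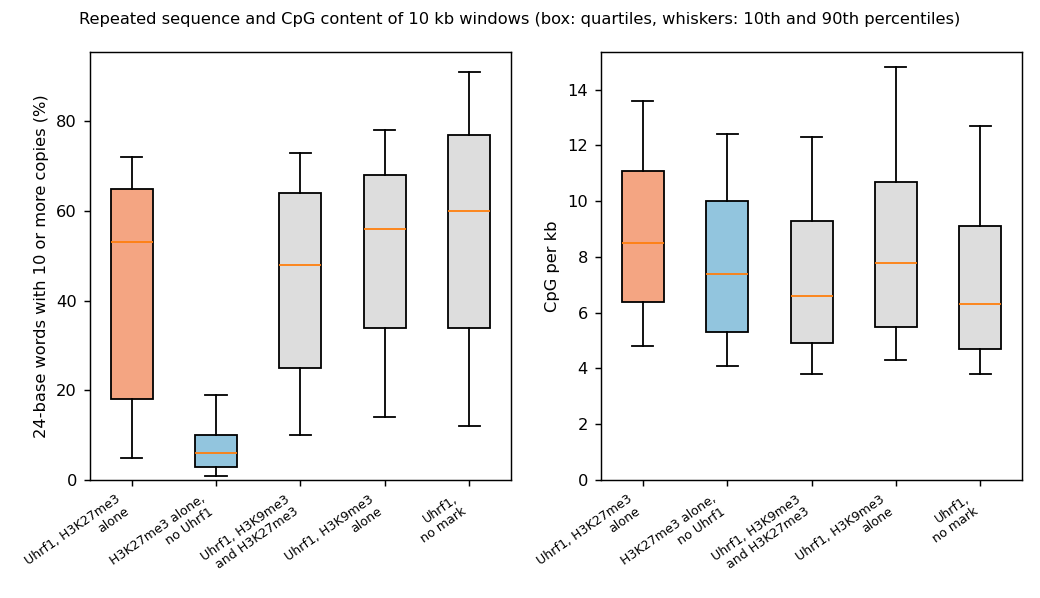
Share of repeated 24-base words (left, %) and CpG per kb (right) in 10 kb windows of the 4 Uhrf1 classes and in the tiles without Uhrf1. Boxes are quartiles with the median, whiskers the 10th and 90th percentiles. The tiles without Uhrf1 have a median of 6% repeated words and every Uhrf1 class has 48% or more.

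A sequence held by many of the windows is shown first. It is the stretch of 200 bases, chosen on odd-numbered autosomes, whose 24-base words occurred on average in the largest number of windows there (189.5 windows). It lies at chr1:22925481-22925680 of mm9 (NCBIM37), plus strand, in no annotated gene, with its single CpG in capitals.
Most shared stretch: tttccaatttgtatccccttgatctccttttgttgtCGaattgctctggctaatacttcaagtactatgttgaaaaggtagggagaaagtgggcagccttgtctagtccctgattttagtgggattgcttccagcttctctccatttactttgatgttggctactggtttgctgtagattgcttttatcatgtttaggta
A window was said to hold a sequence if at least 10 of its 24-base words were found there on either strand. The stretch was held by 462 of the 790 windows (58.5%, 55.0 to 61.9) and by 1272 of the 30969 tiles without Uhrf1 (4.11%, 3.89 to 4.33). On the even-numbered autosomes and the X, which were not used to choose it, the shares were 58.4% (237 of 406) and 4.44% (683 of 15380). It was held by 56.8% of Uhrf1 windows on H3K9me3 and H3K27me3, 57.9% of those on H3K9me3 alone, 32.4% of those with no mark and 9.71% of all tiles of the genome. The stretch is therefore common to the Uhrf1 classes and not particular to H3K27me3. No repeat annotation was used, so the repeats are given by their letters and not named.

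Uhrf1 windows on H3K27me3 alone were also somewhat richer in CpG. The median was 8.5 CpG per kb (quartiles 6.4 and 11.1), against 7.4 in tiles without Uhrf1 (5.3 and 10) and 6.8 over all Uhrf1 windows. With over 25% repeated words the medians were 9.35 in the windows and 6.9 in the tiles. With under 6% the order was turned, with 7.1 in the windows and 8.1 in the tiles. Median G+C was 41.0%, against 41.9% in the tiles, so the higher CpG count did not come with more G+C. Windows ranged from 2 to 48.8 CpG per kb. To show this range, the centre of a window with the median count, at chr1:19434901-19435100 (plus strand, no annotated gene), and the 200 bases richest in CpG of any window, at chr7:105638430-105638629 (plus strand, no annotated gene), are given with CpG in capitals.
Centre of a median window: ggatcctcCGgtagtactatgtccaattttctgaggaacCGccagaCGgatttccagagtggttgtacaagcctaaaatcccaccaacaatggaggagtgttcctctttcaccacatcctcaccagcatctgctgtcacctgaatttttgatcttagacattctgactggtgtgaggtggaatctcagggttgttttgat
Most CpG-dense stretch: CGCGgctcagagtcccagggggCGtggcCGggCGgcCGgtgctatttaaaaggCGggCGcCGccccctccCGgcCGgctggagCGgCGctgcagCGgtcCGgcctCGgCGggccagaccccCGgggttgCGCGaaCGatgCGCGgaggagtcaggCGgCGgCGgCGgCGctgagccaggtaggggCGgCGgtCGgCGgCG
The first holds 3 CpG in 200 bases and the second 33.

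Of the 21 lists not used by the rule, WT mESC Oct4 had the highest ratio of the share of these windows to the share of their comparison tiles. In WT mESC, 113 of the 790 windows held an Oct4 summit (14.3%, 12 to 16.9), against 658 of 30969 tiles without Uhrf1 (2.12%), a difference of 12.2 points (9.90 to 14.8) and a ratio of 6.73. Among windows and tiles of like repeat content, in 5 equal groups, the difference was 6.21 points (3.30 to 9.11). Among all Uhrf1 windows the share was 9.39%, and on H3K9me3 and H3K27me3 it was 9.41%, 4.90 points lower than in the windows on H3K27me3 alone (2.46 to 7.64). On H3K9me3 alone it was 11.6%, a difference of 2.70 points with 0 inside the interval (-0.0572 to 5.66). It was 7.30% with no mark, 18.1% in Uhrf1 windows touching H3K4me3 and 4.44% in all tiles of the genome. In the windows on H3K27me3 alone the share was higher than in the tiles without Uhrf1 on each of the 18 chromosomes with at least 10 windows. It fell off at once on either side: 3.92% of the tiles just upstream and 4.82% of those just downstream held an Oct4 summit, and 1.65% to 4.31% of tiles 20 to 100 kb away. Sox2 and Nanog summits were not more frequent than in the tiles. WT Sox2 was in 4 windows (0.506%, background of all Uhrf1 windows 1.56%, tiles 0.743%) and WT Nanog in 0, which allows a share of up to 0.380% (background 0.579%, tiles 0.601%).

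**Figure D2:**
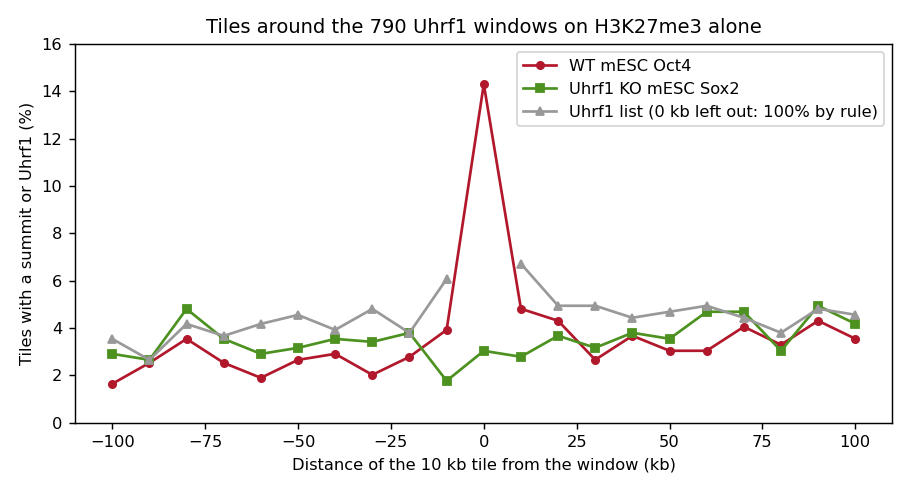
Share of 10 kb tiles (%) with a WT mESC Oct4 summit, an Uhrf1 KO mESC Sox2 summit or Uhrf1 enrichment, by distance in kb from the 790 windows. Oct4 reaches 14.3% in the window itself and 1.65% to 4.82% in every tile around it, while Sox2 in KO mESC shows no peak at 0 kb.

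These Oct4 summits were low and lay in repeated sequence. The 121 summits in the 113 windows had a median height of 23 reads (quartiles 19 and 28, range 14 to 86), against 41 reads (29 and 57) for the 685 summits in tiles without Uhrf1 and 37 over the whole list. When only summits of at least 37 reads were kept, 7 windows remained (0.886%, 0.430 to 1.82), close to the 1.26% of tiles without Uhrf1 (1.14 to 1.39). Among summits under 37 reads the shares were 13.7% and 0.911%. In 98.3% of the 121 summits at least 50% of the words within 75 bp were repeated, against 26.0% of the 685 in tiles. The octamer that Oct4 is known to bind, ATGCAAAT on either strand, was within 75 bp of 5 of the 121 summits (4.13%, 1.78 to 9.31), of 10.5% of the 685 and of 9.66% of the 12697 WT Oct4 summits on the grid. At the centres of the windows, 2.03% of 150-base stretches held it. The Sox core ACAATG was found beside 0 of the 121 summits and beside 10.6% of all WT Oct4 summits.

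Most of the 121 summits fell on copies of the same sequence. When summits whose surrounding 150 bases shared a word of 16 bases were linked, 92 of the 121 (76.0%, in 89 windows on 18 chromosomes) formed a single family, with heights of 15 to 36 reads and a median of 23. A second family held 13 summits (10.7%, heights 14 to 21), a further family held 4, and 4 of the 121 were linked to no other. The member of each of the 2 largest families that shared words with most others is shown, with CpG in capitals. The first is at chr10:113972655-113972804, plus strand, in an intron of Trhde, under a summit of 34 reads, and the second at chr1:194295140-194295289, plus strand, in an intron of Kcnh1, under a summit of 21 reads.
First Oct4 family: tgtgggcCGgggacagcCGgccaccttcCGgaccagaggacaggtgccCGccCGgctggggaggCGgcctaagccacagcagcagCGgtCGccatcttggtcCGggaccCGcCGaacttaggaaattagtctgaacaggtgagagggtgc
Second Oct4 family: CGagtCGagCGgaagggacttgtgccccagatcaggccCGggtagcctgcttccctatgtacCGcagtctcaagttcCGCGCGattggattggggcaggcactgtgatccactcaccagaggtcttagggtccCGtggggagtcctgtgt
They hold 11 and 9 CpG in 150 bases, with 67.3% and 61.3% G+C, and share no word of 24 bases. Both come in tandem: where a word recurred within 1 kb in a window, the commonest distance was 212 bp for the first family (79.9% of distances) and 208 bp for the second (81.6%).

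Windows and tiles that held the first sequence had Oct4 summits at shares whose interval of the difference includes 0. The sequence was held by 120 of the 790 windows (15.2%, 12.9 to 17.9) and by 197 of the 30969 tiles without Uhrf1 (0.636%). Among those that held it, 69 of 120 windows (57.5%) and 102 of 197 tiles (51.8%) had an Oct4 summit, a difference of 5.72 points with an interval from -5.56 to 16.7. In the other Uhrf1 classes the share among holders was 51.7% to 59.3%, and over the genome 50.4% (1413 of 2803 tiles). Among windows that did not hold it, Oct4 was in 44 of 670 (6.57%), against 1.81% of the tiles, a difference of 4.76 points (3.11 to 6.90). These windows were not free of the family: its summits lay in 89 windows, whereas 69 windows with Oct4 met the rule of 10 words, so part of the 44 had a summit of the family. Both family sequences were picked from Oct4 summits inside the windows, so how often the windows hold them is a description. Of the 103 windows with the second sequence and not the first, 13 had Oct4 (12.6%), and of the 176 such tiles 8 (4.55%).

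**Figure D3:**
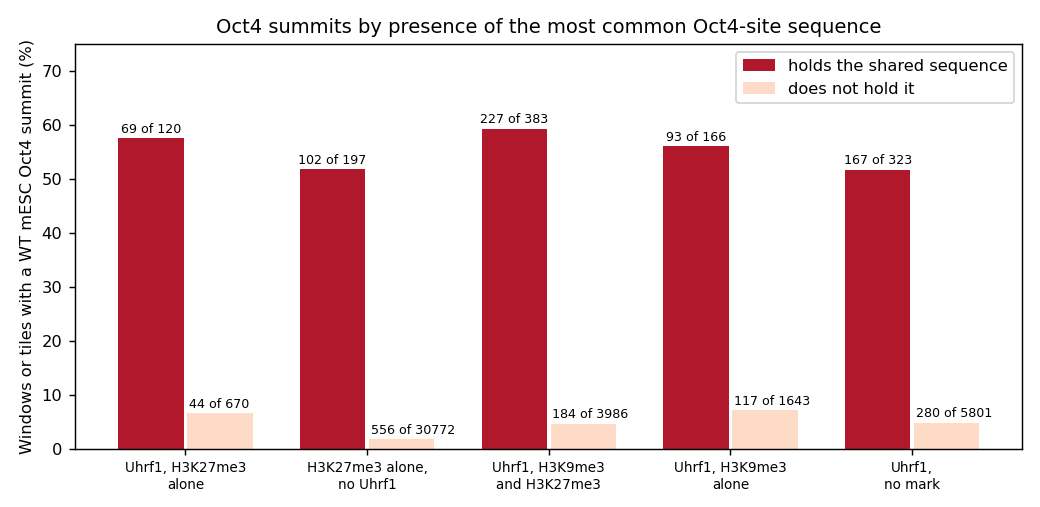
Share of windows or tiles with a WT mESC Oct4 summit (%), split by whether they hold the first Oct4 family sequence, in 4 Uhrf1 classes and the tiles without Uhrf1. Numbers above the bars are counts. Holders lie between 51.7% and 59.3% in every class, with or without Uhrf1, and the others between 1.81% and 7.12%.

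Without Uhrf1 none of the Oct4 sites was called again. In KO mESC, 0 of the 790 windows held an Oct4 summit, which allows a share of up to 0.380%. The background was low as well, with 0.484% of all Uhrf1 windows and 0.0581% of tiles without Uhrf1, since the KO Oct4 list held 576 summits in all, against 12898 in WT. Of the 121 WT Oct4 summits, 13 (10.7%, 6.39 to 17.5) had a KO Sox2 summit within 100 bp, compared with 46.9% of the 685 in tiles without Uhrf1 and 46.6% of all WT Oct4 summits. A KO Nanog summit lay within 100 bp of 5 (4.13%), against 41.5% and 32.8%. KO Sox2 was in 24 windows (3.04%, background 4.63%, tiles 3.03%), and the difference from the tiles was 0.0124 points (-0.995 to 1.47). Against tiles of the same H3K27me3 domains it was 1.15 points (0.105 to 2.62). KO Nanog was in 8 windows (1.01%, background 2.15%, tiles 2.59%). The 30 KO Sox2 summits had a median height of 13 reads, and 11 of them were linked to each other by shared words, with heights of 9 to 15. Of the 24 windows, 13 held the first Oct4 family sequence, which is 10.8% of the 120 that held it, against 15.7% of the 197 tiles that held it.

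The tallest sites are shown because they differ from this majority. The tallest WT Oct4 summit, of 86 reads at chr14:50227311, lay outside annotated genes and had WT Sox2, KO Sox2 and KO Nanog summits within 100 bp. The tallest KO Sox2 summit, of 37 reads at chr16:91254459, was also outside genes, with WT Oct4 and KO Nanog summits within 100 bp. Both are given on the plus strand for the 150 bases around the summit, chr14:50227236-50227385 and chr16:91254384-91254533, with the octamer in capitals.
Tallest WT Oct4 site: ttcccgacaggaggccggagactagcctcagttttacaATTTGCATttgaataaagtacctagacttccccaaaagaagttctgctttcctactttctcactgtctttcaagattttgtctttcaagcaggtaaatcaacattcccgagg
Tallest KO Sox2 site: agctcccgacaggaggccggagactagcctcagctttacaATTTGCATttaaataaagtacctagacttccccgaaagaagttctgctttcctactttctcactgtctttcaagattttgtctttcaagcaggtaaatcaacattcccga
The pair are copies of a repeat too, with 144 of 148 aligned bases the same (97.3%), and each holds the octamer as its reverse complement, ATTTGCAT. The WT Oct4 family of 3 summits to which the taller belongs had heights of 40 to 86 reads. The tallest KO Nanog summit, of 18 reads, was at chr6:56242407 in Pde1c outside its exons, with no repeated words around it. The tallest WT Sox2 summit, of 25 reads, was at chr8:126069523 in an exon of Gm20388.

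H3K27me3, the mark that defined these windows in WT mESC, was seldom called there in KO mESC. It was in 18 of 790 windows (2.28%, 1.45 to 3.57), beside a background of 2.29% over all Uhrf1 windows. That background mixes 3.66% on H3K9me3 and H3K27me3, 1.22% on H3K9me3 alone, 0.588% with no mark and 13.8% touching H3K4me3. In the tiles without Uhrf1 the share was 7.57%, a difference of -5.29 points (-6.18 to -3.97). It was -1.52 points (-2.75 to -0.291) at like repeat content and -1.08 points, with an interval that includes 0 (-2.02 to 0.274), against tiles of the same H3K27me3 domains. The KO mESC H3K27me3 list was itself short, with 722 domains over 84.1 Mb against 960 Mb in WT mESC, so these shares are read against the tiles and not against WT. Its domains were also low, with a median mean count of 0.914 reads per bin of 1500 bp. In WT mESC it was 4.93 per bin of 1800 bp. H3K9me3, absent by the rule in WT mESC, was in 181 windows in KO mESC (22.9%, 20.1 to 26.0). That was close to the 23.6% of tiles without Uhrf1 (difference -0.699 points, -3.53 to 2.39). The background was 40.2%, but it includes Uhrf1 windows with H3K9me3 in WT mESC, which the rule removed here. Uhrf1 windows with no mark, which lacked it too, had 3.48%, and the windows on H3K27me3 alone were 19.4 points above them (16.6 to 22.5). They are not a like class: in their median window 3% of words occurred once, against 41% in the windows on H3K27me3 alone. On the X, which held 2130 of all Uhrf1 windows and 61 of those on H3K27me3 alone, KO mESC H3K9me3 touched 0.450% of tiles. The part of either in the 19.4 points was not tested. Against tiles without Uhrf1 of like repeat content, in 5 equal groups, the difference was -10.1 points (-14 to -6.24). H3K4me3 was in 3 windows (0.380%, background 2.58%, tiles 1.74%). Altogether 593 windows (75.1%) carried none of the 3 marks in KO mESC, 176 (22.3%) H3K9me3 alone, 13 H3K27me3 alone and 5 both.

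In EBs, H3K27me3 was found again at many of these windows, at week 2 above all. In WT EBs it was in 18 windows at week 1 (2.28%, background 2.66%), 498 at week 2 (63.0%, 59.6 to 66.3, background 46.7%) and 331 at week 3 (41.9%, 38.5 to 45.4, background 26.8%). This background mixes unlike classes. At week 2 Uhrf1 windows on H3K9me3 and H3K27me3 had 87.8%, those on H3K9me3 alone 68.1% and those with no mark 7.90%. At week 3 these shares were 55.6%, 23.2% and 2.65%. The tiles without Uhrf1 gave 9.56%, 58.0% and 56.4% at the 3 weeks in turn. The windows were thus below the tiles at week 1 (-7.29 points, -8.18 to -5.95) and at week 3 (-14.5 points, -17.9 to -10.99), and above them at week 2 (by 4.996 points, 1.53 to 8.34). The week 2 difference did not hold: it was 1.10 points (-2.03 to 4.22) among regions of like G+C, -3.66 (-7.79 to 0.467) among regions of like repeat content, and -5.54 (-9.11 to -2.07) against the 7360 tiles of the same H3K27me3 domains. At week 3 the windows were above the tiles on 0 of the 18 chromosomes with at least 10 of them, and the difference was -4.73 points (-9.05 to -0.407) at like repeat content. The WT lists of weeks 1, 2 and 3 covered 101, 1165 and 791 Mb, the same order as the shares of windows. The part of list extent in that order was not tested.

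The KO EBs had fewer such windows from week 2 on. H3K27me3 was in 40 windows at week 1 (5.06%, background 3.37%), 187 at week 2 (23.7%, 20.8 to 26.8, background 12.3%) and 137 at week 3 (17.3%, 14.9 to 20.1, background 13.9%), against 17.7%, 37.8% and 28.5% of the tiles. The KO share less the WT share came to 2.78, -39.4 and -24.6 points for the 3 weeks in turn, beside 8.13, -20.3 and -28.0 points in the tiles. In Uhrf1 windows on H3K9me3 and H3K27me3 it was 1.14, -62.6 and -24.5 points. Among windows with over 25% repeated words, the week 2 share was 65.7% in WT and 23.1% in KO. Among tiles with over 25% it was 69.5% and 23.3%, so the week 2 fall was not particular to the windows. At week 2, 115 of the 498 WT windows (23.1%) were also marked in KO, against 38.2% of the WT-marked tiles, and at week 3 99 of 331 (29.9%) against 41.4%. For Uhrf1 windows on H3K9me3 and H3K27me3 these shares were 25.3% at week 2 and 42.2% at week 3. Over the 3 weeks 203 windows (25.7%) were never marked in WT EBs and 533 (67.5%) never in KO EBs, and for the tiles these shares were 21.9% and 53.0%. The KO week 2 list covered 467 Mb, and a shorter list and a loss at these windows cannot be told apart with 1 library each. In KO EBs the gap between windows and tiles narrowed at like repeat content, from -14.1 to -1.04 points at week 2 (-4.61 to 2.53) and from -11.1 to -3.46 points at week 3 (-6.77 to -0.147).

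**Figure D4:**
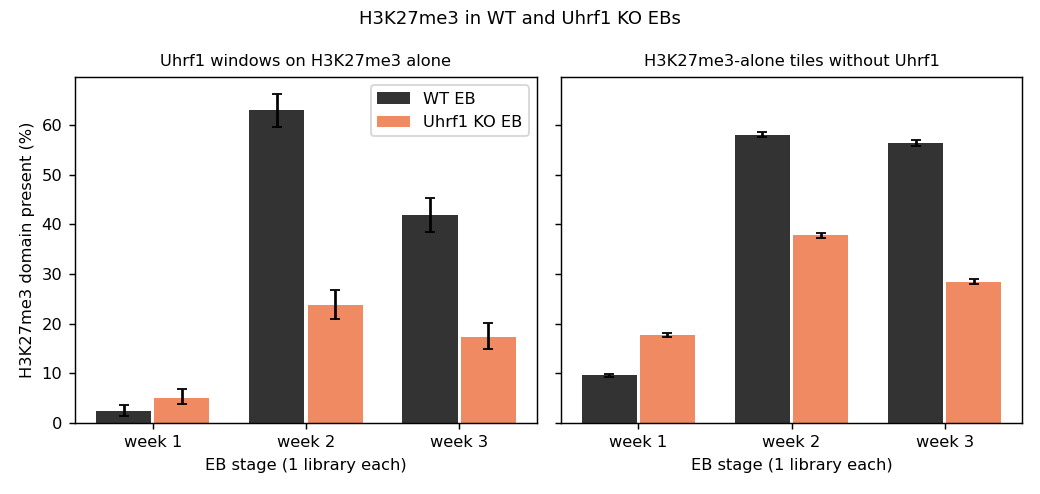
Share (%) of the 790 Uhrf1 windows on H3K27me3 alone (left) and of the 30969 tiles without Uhrf1 (right) with an H3K27me3 domain in WT and Uhrf1 KO EBs at weeks 1, 2 and 3. Bars are 1 library each and error bars Wilson 95% intervals. In both panels KO is above WT at week 1 and below it at weeks 2 and 3.

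H3K4me3 stayed rare at these windows in every EB list. In WT EBs it was in 7 windows at week 1 (0.886%, background 2.46%), 35 at week 2 (4.43%, background 5.22%) and 16 at week 3 (2.03%, background 3.86%). In KO EBs it was in 3 (0.380%, background 2.35%), 18 (2.28%, background 4.35%) and 15 (1.90%, background 3.95%). The tiles without Uhrf1 had 3.27%, 14.3% and 6.59% in WT and 3.17%, 8.84% and 6.92% in KO, and the differences, from -9.84 to -2.38 points, had intervals below 0 in all 6 lists. At like repeat content they were between -2.29 and -0.301 points, and the intervals of WT weeks 1 and 3 included 0. When at least 50% of the window had to be covered, the differences were between -0.68 and -0.0743 points and the intervals of all 6 lists included 0. In any of the 6 lists, 52 windows (6.58%) and 19.3% of the tiles had H3K4me3. The window that holds the most CpG-dense stretch shown above was among them, with H3K4me3 in 4 of the 7 other H3K4me3 lists.

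**Figure D5:**
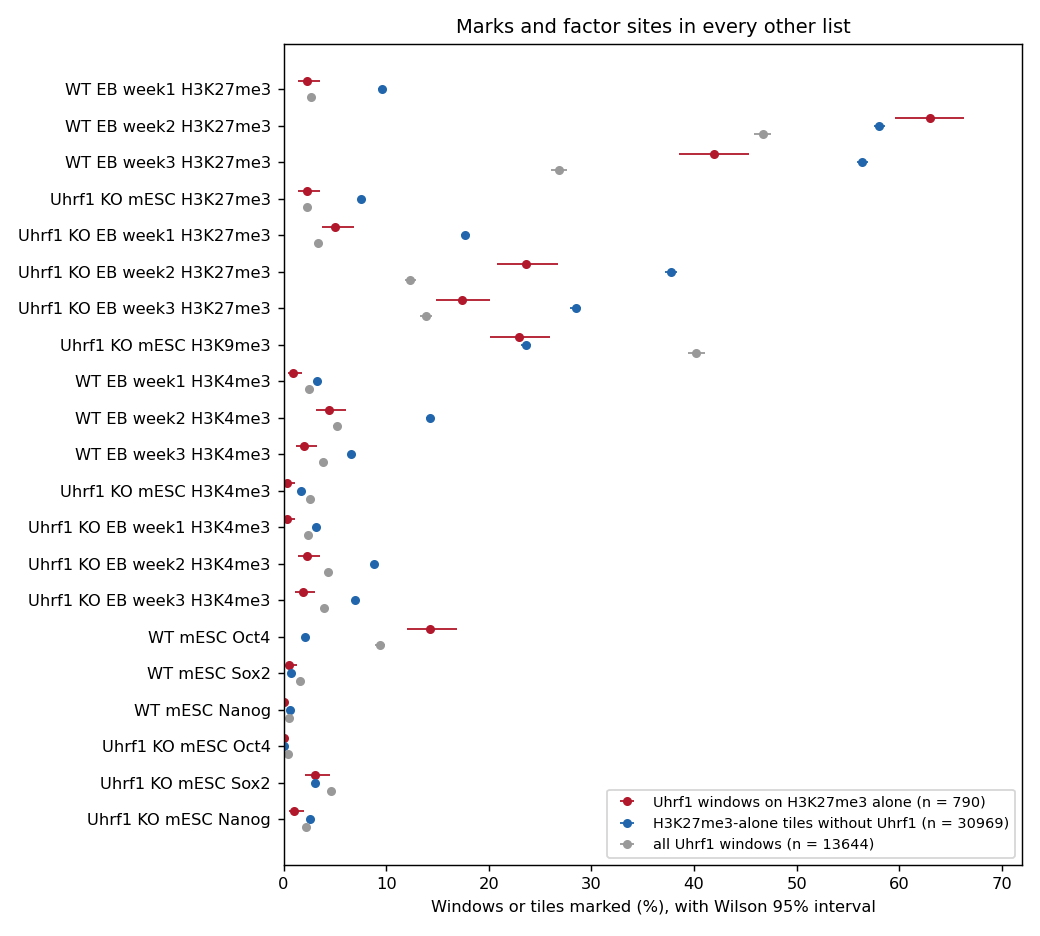
Share (%) of the 790 Uhrf1 windows on H3K27me3 alone, of the 30969 tiles without Uhrf1 and of all 13644 Uhrf1 windows with a domain or summit in each of the 21 other lists. Points are shares and bars Wilson 95% intervals. Oct4 in WT mESC stands at 14.3% in the windows and 2.12% in the tiles, while H3K4me3 is lower in the windows than in the tiles in every list.

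The windows can be described by the sequences they held, with the reservation that 2 of the 3 were picked from Oct4 summits in these windows, so that the Oct4 shares follow from the choice. The 316 windows (40%) that held none of the 3 sequences above had a median of 12% repeated words, and Oct4 was in 3.16% of them. The 251 that held the most shared stretch alone had 57% repeated words and Oct4 in 8.37%. KO mESC H3K9me3 was in 17.1% of the former, 24.3% of the latter, 28.3% of the 120 with the first Oct4 family and 31.1% of the 103 with the second family only. In the tiles without Uhrf1 these shares were 23.1%, 33.5%, 38.6% and 31.8%. The shares of H3K27me3 in WT EBs at week 2 in the same order were 56.6%, 63.3%, 75% and 67.96%, being highest with the first family, as in the tiles without Uhrf1 (57.3%, 71.5%, 82.2% and 71.02%). The 100 windows with under 6% repeated words held 0 WT Oct4 summits, had KO mESC H3K9me3 in 6% and H3K4me3 in any of the 7 other lists in 12%. The 15458 tiles with under 6% had 2.01%, 18.99% and 23.2%.

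Gene bodies and exons were less frequent than in the tiles without Uhrf1, but gene bodies were more frequent than over all Uhrf1 windows. Protein-coding gene bodies overlapped 262 of 790 windows (33.2%, 29.97 to 36.5), against 39.8% of tiles without Uhrf1 and 26.7% of all Uhrf1 windows. Exons were in 9.49%, against 19.2% of the tiles and 14.5% of all Uhrf1 windows. A gene start was in 20 windows (2.53%, 1.64 to 3.88), against 3.68% of the tiles and 5.67% of all Uhrf1 windows. The median distance from the centre of a window to the nearest start was 114 kb, compared with 77.1 kb in the tiles. The windows touched 211 of 22367 protein-coding genes (0.943%), with a median length of 308 kb against 15.4 kb for all. Any scattered windows meet long genes more often, so a gap of this direction follows from the counting. The lengths of genes on the tiles were not compared. Of these genes 169 had 1 window, 31 had 2 and 11 had 3 or more.

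The 10 genes with most windows spanned 323 to 2271 kb. Ptprd, a receptor tyrosine phosphatase of neurons, and Agbl4, a carboxypeptidase that trims glutamates from tubulin, each held 5, and Egfem1 held 4. All 14 of these windows were marked by H3K27me3 in WT EBs at week 2, and 3 of them in KO EBs at week 2. At Ptprd (chr4:75587142-77857865), 3 of the 5 windows held a WT Oct4 summit. At Agbl4 (chr4:110070266-111336929), 3 of the 5 had H3K9me3 in KO mESC and 0 had Oct4. Dmd, which encodes dystrophin, Lrp1b, of the LDL receptor family, Pcdh15, a protocadherin of inner ear hair cells, 1700112E06Rik, Thsd7b, Pgcp, a glutamate carboxypeptidase, and the axon guidance ligand Slit2 held 3 each. All 3 Lrp1b windows had H3K9me3 in KO mESC. Slit2 (chr5:48374394-48697521) had H3K27me3 in 2 of its 3 windows at week 2 in WT EBs and in 0 at every stage in KO.

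Of all protein-coding genes 0.943% had a body on a window, so lists of developmental regulators would hold few by their size. Of 145 homeobox genes, 43 Fox, 13 Tbx, 6 Gata, 20 proneural bHLH, 19 Wnt and 26 Bmp and related genes, none had a body on a window. On a tile without Uhrf1 18.6%, 23.3%, 38.5%, 83.3%, 20%, 31.6% and 19.2% of them had a body. With 30969 tiles and 790 windows, the shares on tiles and on windows are not alike in scale, and avoidance of these genes was not tested. For all protein-coding genes the share on a tile was 14.4%. The lists of olfactory receptors (1113 genes), vomeronasal receptors (331), cytochrome P450 (98), keratins (97), serpins (60), defensins (55), germline genes silenced by methylation (17) and naive pluripotency genes (16) also had 0. Of 374 Zfp genes there was 1, of 19 Sox genes 1 (Sox6), of 22 Fgf genes 2 (Fgf10 and Fgf12), and of 77 X-linked germline family genes 2. The remaining lists gave 7 of 27 glutamate receptor genes (25.9%, including Grm7), 3 of 13 contactins and relatives (23.1%, including Cntnap2), 2 of 19 GABA receptors, 3 of 65 cadherins and protocadherins and 6 of 96 potassium channels (6.25%). The tiles without Uhrf1 touched 63.0%, 76.9%, 47.4%, 32.3% and 41.7% of these lists. The part of gene length in these counts was not tested.

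Of the listed genes, 4 had their start in a window. Kcnb2, a voltage-gated potassium channel (chr1:15302533-15701710), had 0% repeated words in its start window, with H3K27me3 in WT EBs at week 2 and in KO EBs at weeks 2 and 3 and no H3K4me3. Zfp488, a zinc finger factor of oligodendrocytes (chr14:34780256-34791950), had H3K27me3 at all 3 weeks in KO EBs, at weeks 1 and 3 in WT EBs, and H3K4me3 in KO EBs at week 3. Xlr3c (chrX:70499879-70510729), of a multicopy family on the X, had H3K4me3 in KO EBs at all 3 weeks and in no WT list, and 65% of the words of its window were repeated. Xlr5c (chrX:70528235-70538315) had neither mark in any other list. Since copies of such families share reads, their values are uncertain. Outside the lists, and chosen after their values were seen, Myct1 (chr10:4739754-4752813) had H3K4me3 in all 6 EB lists, and Gng4, a G protein gamma subunit (chr13:13876326-13920164), in 5 of them. The paralogues Tcl1b1 and Tcl1b3 on chromosome 12 each had their start in a window and H3K27me3 in WT EBs at week 3.

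The longest run, 40 kb at chrX:131860001-131900000, lay in no protein-coding gene, had a median of 5% repeated words and no mark or site in any other list of H3K27me3, KO mESC H3K9me3 or factor sites. The lack of marks is not particular to this run, since few were called on the X. KO mESC H3K9me3 touched 0.450% of its tiles. Of its 1049 tiles without Uhrf1, 0 had H3K27me3 in KO mESC. In EBs 3.81% had it at week 3 in WT, and 2.38% and 0.763% at weeks 2 and 3 in KO. Runs of 30 kb lay at chr4:99650001-99680000 over Pgm2, at chr14:29410001-29440000 and at chrX:20830001-20860000. Of their 9 windows, 1 had H3K27me3 in WT EBs at week 3 and 1 held a WT Oct4 summit. By chromosome, 61 windows lay on the X (7.72%), 0 on chromosome 11 and 2 on chromosome 8. WT mESC H3K9me3 domains touched 81.9% of the tiles of chromosome 11 and 87.7% of those of chromosome 8, compared with 21.6% to 53.0% on the other autosomes, and the rule removed windows there. On the X, H3K27me3 at week 2 in WT EBs was in 9 of the 61 windows (14.8%) and in 11.8% of 1049 tiles.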

How the data were processed

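ChIP-seq lists of 25 libraries (WT E14 mESC, Uhrf1 KO mESC, and EBs of both) were used, 1 library per group. The authors mapped reads to mm9 with Bowtie2 2.1.0, keeping 1 alignment per read, and called histone domains against input with RSEG and factor summits with MACS, per library. The deposited histone lists give, for each domain, a signal (reads per bin, averaged, with bins of 350 to 1800 bp) and a score. The deposited factor lists give a signal, the number of reads at the summit. The Uhrf1 list holds 10 kb windows without a value.

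Windows, the same grid and genes (GENCODE, NCBIM37) were intersected with Python 3.11.15, numpy 2.4.6, pandas 2.3.3 and numba 0.67.0, and sequences read with pysam 0.24.0. A list marked a window when it shared at least 1 bp with a domain or held a summit. Comparison tiles had at least 50% known bases. The genome file was not soft-masked, so repeat content was measured by words of 24 bases, and this and the search for shared sequences were chosen after the files were seen. Overlaps, word counts and grouped differences were checked on simulated data. Depth per library was not used here. Genes were named by most windows over the body (10 genes) or, within fixed name lists, by a start in a window. Sequences were named as the most shared, the CpG median and maximum, and those at summits. The alternatives were 50% coverage, above-median domains or summits, merged runs, autosomes only, a strict rule, and 5 groups of G+C, domain mean count or repeated words. The strict rule asked for 50% of the window in H3K27me3 and no WT mESC H3K9me3 or H3K4me3 domain in the adjoining 10 kb tiles. The windows, lists and comparisons were chosen with earlier results of these data known. No test over replicates could be made.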

Additional observations from a re-analysis of the deposited data

Results flagged for a closer look

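The change of H3K27me3 between genotypes differed in sign between EB stages. The share of the 790 windows with an H3K27me3 domain was 2.78 points higher in KO than in WT EBs at week 1, 39.4 points lower (-39.37) at week 2 and 24.6 points lower (-24.56) at week 3. It was flagged because 1 stage moved up and the other 2 down. The difference between stages was not tested, since each stage and genotype had 1 library. The tiles without Uhrf1 moved in the same directions, by 8.13, -20.3 and -28.0 points. Uhrf1 windows on H3K9me3 and H3K27me3 did so too, by 1.14, -62.6 and -24.5 points. The WT week 1 list covered 101 Mb, against 180 Mb in KO, and the WT week 2 and week 3 lists 1165 and 791 Mb, against 467 and 420 Mb, and the part of list extent in these changes was not tested.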

How the results depend on the processing

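No paired analysis was possible because each group held 1 library and no result comes from a test over replicates. Of 158 alternative values of the differences between windows and tiles without Uhrf1, over 21 lists, 129 were counted as unchanged. Their intervals stayed on the same side of 0, or included 0 as before. In the latter case the sign could change. The difference for KO mESC H3K9me3, -0.699 points, was 0.39 on autosomes only and 1.92 against tiles of the same domains. With 50% of the window covered, the intervals of all 7 H3K4me3 differences included 0. With only summits above the median height of the list, the WT mESC Oct4 share fell to 0.886% and its difference from the tiles turned to -0.331 points. It was 5.72 points, with 0 inside the interval, among windows and tiles that hold the first Oct4 family sequence. For H3K27me3 in WT EBs at week 2 the difference was 1.10 points in groups of G+C, 3.67 under the strict rule, -3.66 in groups of repeated words and -5.54 against tiles of the same domains. The difference for KO mESC H3K27me3 was -1.08 points, with 0 inside the interval, against tiles of the same domains, that for KO EBs at week 2 was -1.04 in groups of repeated words, and that for KO mESC H3K9me3 was -10.1 in groups of repeated words. The shares of windows moved for WT EB week 2 H3K27me3 to 58.7% (above-median domains) and 67.1% (autosomes only), for WT EB week 3 to 35.2% (above-median) and 38.2% (strict rule), for KO EB week 2 to 19.1% (above-median) and for KO mESC H3K9me3 to 20.1% (strict rule). KO minus WT H3K4me3 at week 3 turned to 0.335 points under the strict rule. The share with a protein-coding gene was 2.53% by gene starts. The groups of repeated words, the tiles of the same domains and the split by sequence were chosen after seeing the data. Each group of repeated words held at least 104 tiles. Apart from what these constructions show, the cause was not tested. Without replicates, differences between libraries, line effects of the 1 KO line and list length cannot be told apart from genotype, and sites in repeated sequence cannot be assigned to a copy from these lists.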
